A study of Mus musculus with 14 samples.

Results

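The 10 genes described here are Bpifa2, Chia1, Amy1, Smr3a, Dcpp1, Mucl2, Scgb1b27, Scgb2b27, Prol1 and Pip, all known as products of secretory glands, out of 50508 gene symbols in each of the 2 deposited count tables. They were selected on their measured read counts, as abundant gland genes in the table that holds the ILTCk cells split by NK1.1 and PD1+ Tconv, so their abundance there is a description and carries no test. Counts were scaled within each table to CPM, counts relative to the library total, with TMM (trimmed mean of M-values, an edgeR scaling by library composition). Every CPM value is a level of 1 library unless it is named as a mean or a sum.

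The study sorted T cells from mice for bulk RNA sequencing, with 2 libraries in each of 5 groups. NK1.1+ ILTCk and NK1.1- ILTCk are killer innate-like T cells that carry an alpha-beta T cell receptor and are split by the surface receptor NK1.1, and PD1+ Tconv are conventional T cells that carry the inhibitory receptor PD-1; the model of all 3 groups is given as retrogenic, a name for mice rebuilt with bone marrow that carries an introduced gene. Both sort gates that are given took CD45+ cells that carried TCRbeta and CD8alpha and lacked TCRgd and CD4. The tumour-infiltrating NK1.1+ ILTCk were also NK1.1+ and PD-1-, and the PD-1+ cells were also PD-1+ and NK1.1-. For the NK1.1- ILTCk group no gate is given, and neither the introduced gene, the age of the mice nor the tumour behind these 6 libraries is stated in the sources used here. ILTCkP, the thymic progenitors of the innate-like cells, and CD8SP, thymic CD8 single-positive cells, came from C57BL/6 mice. The table with the first 3 groups is called the tumour table below, and the other the thymic table. The 4 single-cell libraries were not analysed here.

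Salivary glands release amylase, lipid-binding and antimicrobial proteins, mucins and small carrier proteins into saliva. In mice the parotid gland is mainly serous and makes amylase and parotid secretory protein, the submandibular gland makes mucin-like proteins and androgen-binding proteins and, in its granular ducts, kallikreins and growth factors, and the sublingual gland is mainly mucous. The lacrimal gland makes several of the same protein families for tears.

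All libraries held 16530085 to 32097301 counts, and TMM factors in the tumour table ran from 0.748 to 1.21. The 12 T cell markers, among them Cd3e, Trac and Cd8a, were each at 1 CPM or more in all 10 libraries. Their summed level was 4750 and 977 CPM in NK1.1+ ILTCk, 2631 and 1943 CPM in NK1.1- ILTCk, 8337 and 5983 CPM in PD1+ Tconv, 9323 and 8894 CPM in ILTCkP and 17206 and 15430 CPM in CD8SP. PD1+ Tconv replicate 2 stood apart from the other libraries in the genes described below, and the fold changes against PD1+ Tconv that rest on it are given with and without it. Replicates are called biological in the series' description, with no word on separate animals. Any p-value given here therefore reflects how far these libraries scatter, which may be technical.

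Promoter sequences are shown for the 3 genes with the highest levels in each of the 2 patterns described below and for Pip, because genes that were high in the same libraries lie at separate places in the genome. In GENCODE coordinates (GRCm38, the assembly also called mm10) Bpifa2 is at chr2:154008265-154016079, Mucl2 at chr15:103895855-103899312, Pip at chr6:41847535-41852065 and Dcpp1 at chr17:23880876-23882853. Amy1 at chr3:113555710-113606699 and Chia1 at chr3:106113229-106132120 are 7423.6 kb apart. Scgb1b27 at chr7:34021483-34022881 and Scgb2b27 at chr7:34011921-34013942 are neighbours on opposite strands, 7.5 kb apart with 0 protein-coding genes between them. Smr3a at chr5:88002549-88008534 and Prol1 at chr5:88317312-88328814 are 308.8 kb apart with 4 protein-coding genes between them, and they fell into different patterns.

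The 120-base stretches below run 5′ to 3′ on the gene's strand, from 70 bases before to 50 bases from the RefSeq transcript start on (GRCm38.p6), and capitals mark the letters TATAA, the core of a TATA box. The first set belongs to genes that were high in PD1+ Tconv replicate 2 and NK1.1- ILTCk replicate 1, at chr2:154008206-154008325, plus strand for Bpifa2, at chr3:106113312-106113431, plus strand for Chia1 and, for Amy1, which has 2 promoter entries, at chr3:113577701-113577820 (entry 1) and chr3:113574713-113574832 (entry 2), both minus strand.
Bpifa2: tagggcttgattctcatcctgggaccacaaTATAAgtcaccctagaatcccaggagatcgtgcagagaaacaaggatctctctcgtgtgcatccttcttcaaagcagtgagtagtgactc
Chia1: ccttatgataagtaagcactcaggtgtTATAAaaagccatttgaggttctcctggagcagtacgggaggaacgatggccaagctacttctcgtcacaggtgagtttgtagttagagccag
Amy1 entry 1: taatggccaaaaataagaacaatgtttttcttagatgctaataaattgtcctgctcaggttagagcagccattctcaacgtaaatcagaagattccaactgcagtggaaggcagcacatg
Amy1 entry 2: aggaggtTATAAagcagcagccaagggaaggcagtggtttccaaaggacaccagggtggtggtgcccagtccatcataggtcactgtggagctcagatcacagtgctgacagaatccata

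The next 3 belong to genes that were high in NK1.1- ILTCk replicate 2 and NK1.1+ ILTCk replicate 2, at chr15:103899263-103899382, minus strand for Mucl2, at chr7:34021411-34021530, plus strand for Scgb1b27 and at chr7:34013893-34014012, minus strand for Scgb2b27. The last, at chr6:41847479-41847598, plus strand, belongs to Pip, which was high in all 4 of these libraries.
Mucl2: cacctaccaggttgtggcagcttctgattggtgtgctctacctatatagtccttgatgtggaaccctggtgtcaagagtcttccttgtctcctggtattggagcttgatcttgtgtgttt
Scgb1b27: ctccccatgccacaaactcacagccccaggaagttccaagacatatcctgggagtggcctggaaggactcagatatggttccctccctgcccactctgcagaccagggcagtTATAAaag
Scgb2b27: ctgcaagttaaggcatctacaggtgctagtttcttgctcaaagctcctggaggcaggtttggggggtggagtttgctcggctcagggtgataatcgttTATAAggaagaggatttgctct
Pip: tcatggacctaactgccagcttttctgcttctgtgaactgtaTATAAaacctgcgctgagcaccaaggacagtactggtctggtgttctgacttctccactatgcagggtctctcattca

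TATAA began 40 bases before the start in Bpifa2, 43 in Chia1, 28 in Pip and 63 in Amy1 entry 2. In Scgb1b27 and Scgb2b27 it lay after the annotated start, and the stretches of Mucl2 and Amy1 entry 1 did not hold it. Only these exact letters were searched, so a stretch without them may still hold another form of a TATA box. Of the genes not shown, Dcpp1 had it 26 bases before the start and Smr3a 12 bases before, and it was not in the same stretch of Prol1. Over the full 300-base windows, TATAA was found on either strand in 8 of the 11 promoter entries of the 10 genes (72.7%; Amy1 has 2 entries) and in 24.9% of all 32851 RefSeq promoters. On the gene's strand and lying wholly between 45 and 15 bases before the start, it was found in 4 of the 11 entries (36.4%). These were the entries of Bpifa2, Chia1, Dcpp1 and Pip. The share over all promoters was 3.89%. A match of letters is a description of the sequence and names no bound factor.

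The 10 genes together took 0.284% and 10.03% of all counts in the NK1.1+ ILTCk libraries, 5.91% and 13.3% in the NK1.1- ILTCk libraries, and 0.184% and 26.3% in the PD1+ Tconv libraries (replicates 1 and 2 in each group). Wilson 95% intervals, which cover counting error only, ran from 26.31% to 26.36% in the last of these libraries and from 0.183% to 0.186% in its partner. Within NK1.1+ ILTCk and PD1+ Tconv 1 library carried far more of these transcripts than the other, 45.1-fold and 214-fold by summed CPM. Within NK1.1- ILTCk the fold was 2.75. The summed level averaged 57951 ± 78397 CPM in NK1.1+ ILTCk, 91703 ± 60499 CPM in NK1.1- ILTCk and 176978 ± 247954 CPM in PD1+ Tconv (SD, n = 2 each). Any 2 of these means differed by less than the larger SD of the pair, though not always by less than the smaller. In bulk libraries, fewer cells of a type and less RNA per cell cannot be told apart.

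**Figure D1:**
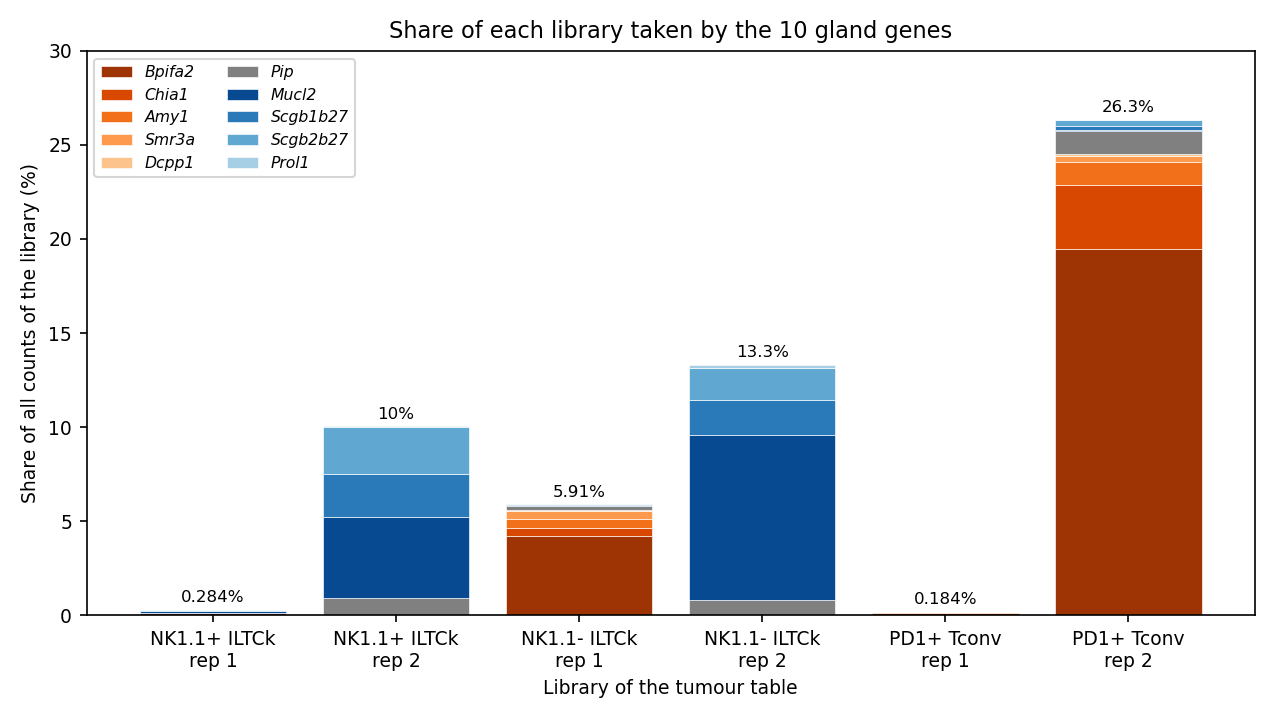
Bars show the share of all counts of a library (%) taken by the 10 gland genes in the 6 libraries of the tumour table, stacked by gene, with orange shades for Bpifa2, Chia1, Amy1, Smr3a and Dcpp1, blue shades for Mucl2, Scgb1b27, Scgb2b27 and Prol1, and grey for Pip. The bars reach 26.3% in PD1+ Tconv replicate 2 and stand at 0.284% and 0.184% in NK1.1+ ILTCk replicate 1 and PD1+ Tconv replicate 1.

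The thymic libraries held almost none of these transcripts. ILTCkP had 18 and 1 counts in all over the 10 genes, from Chia1 in replicate 1 and Pip in replicate 2, and CD8SP had 7 and 1 counts, from Amy1 in replicate 1 and Scgb2b27 in replicate 2. The other 6 genes had 0 counts in all 4 libraries. A count of 0 there allows a level of up to 0.0935 to 0.108 CPM, depending on the library (3 counts). The genes were picked for abundance in the tumour table, with earlier results of these data known, so their contrast with the thymic table is a description and carries no test. Tissue, mouse model and table differ together between the 2 sets of libraries, and their parts cannot be told apart. The 2 tables were scaled separately.

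**Figure D2:**
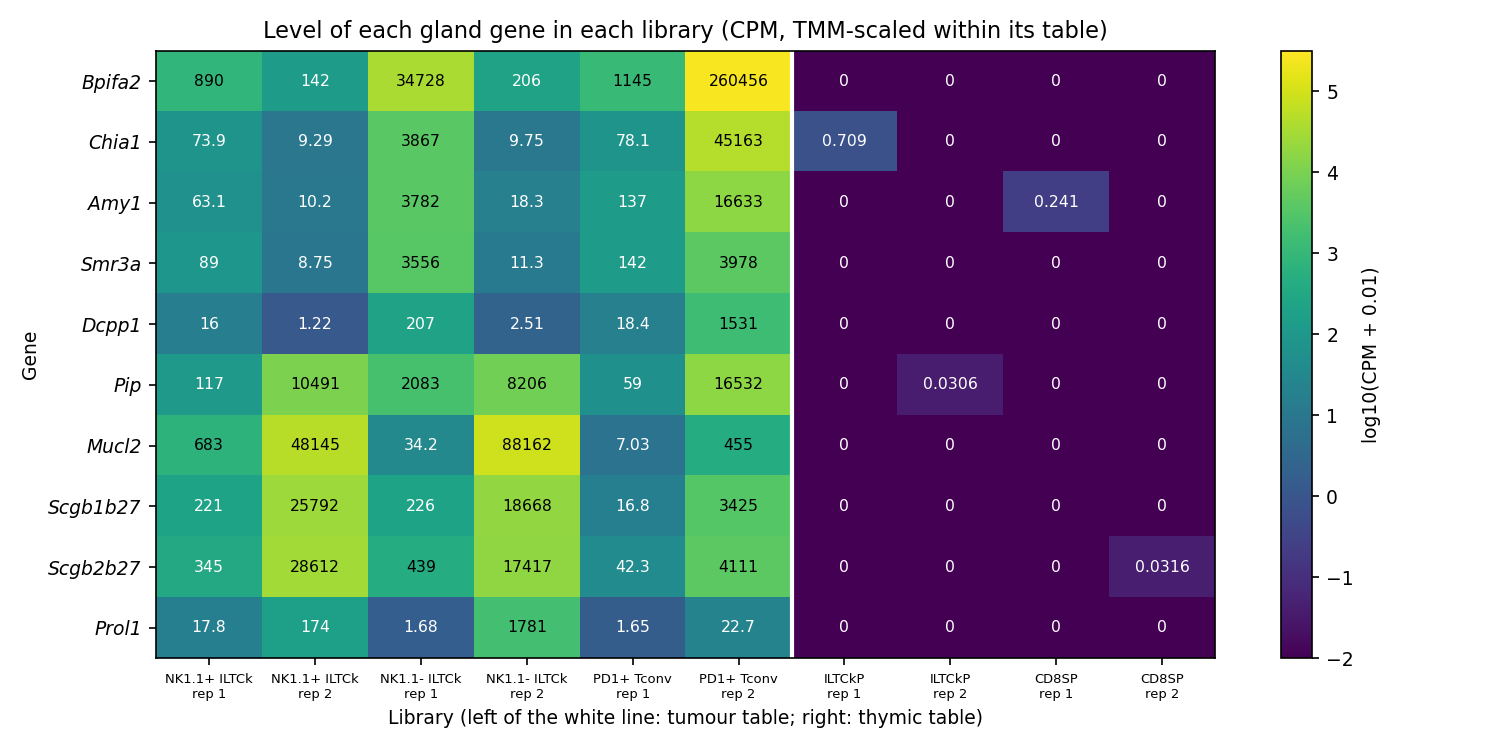
Each cell gives the level of 1 gene (rows) in 1 library (columns) in CPM scaled within its table, coloured by log10(CPM + 0.01), with the 6 libraries of the tumour table left of the white line and the 4 thymic libraries right of it. The upper 5 genes are highest in PD1+ Tconv replicate 2 and NK1.1- ILTCk replicate 1, the lower 4 in both ILTCk replicate 2 libraries, and the thymic libraries are at or near 0.

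The 10 genes fell into 2 sets and 1 gene between them, a grouping made after their values were seen. Bpifa2, Chia1, Amy1, Smr3a and Dcpp1, called the Bpifa2 set, were highest in PD1+ Tconv replicate 2 and next highest in NK1.1- ILTCk replicate 1. Mucl2, Scgb1b27, Scgb2b27 and Prol1, called the Mucl2 set, had their 2 highest levels in NK1.1- ILTCk replicate 2 and NK1.1+ ILTCk replicate 2. Across the 6 libraries, Pearson's r of log2(CPM + 1) lay between 0.966 and 0.999 for the 10 pairs within the Bpifa2 set and between 0.854 and 0.999 for the 6 pairs within the Mucl2 set. The 20 pairs with 1 gene of each set lay between -0.70 and -0.22. These correlations describe 6 libraries whose points share the library total, of which the genes themselves took up to 26.3%.

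Bpifa2 encodes parotid secretory protein, a secreted protein of the BPI fold family that binds lipids. It stood at 890 and 142 CPM in NK1.1+ ILTCk, at 34728 and 206 CPM in NK1.1- ILTCk and at 1145 and 260456 CPM in PD1+ Tconv. It had the most counts of any gene in NK1.1- ILTCk replicate 1 and in PD1+ Tconv replicate 2, where it took 4.20% and 19.5% of all counts. The highest level was 1829 times the lowest, and within PD1+ Tconv the replicates differed 227-fold.

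Chia1 encodes acidic mammalian chitinase, an enzyme known from mouse stomach, lung and salivary gland. It stood at 73.9 and 9.29 CPM in NK1.1+ ILTCk, at 3867 and 9.75 CPM in NK1.1- ILTCk and at 78.1 and 45163 CPM in PD1+ Tconv. Its span was the widest of the set, 4862-fold between the highest and the lowest library. The other 12 genes of the stomach list, such as Gkn1 and Atp4a, summed to 0.273 to 4.05 CPM in the 6 libraries, with Gif, Gkn2 and Atp4b at 0 in all of them.

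Amy1 encodes salivary amylase, which cuts starch. It stood at 63.1 and 10.2 CPM in NK1.1+ ILTCk, at 3782 and 18.3 CPM in NK1.1- ILTCk and at 137 and 16633 CPM in PD1+ Tconv, in the same order of libraries as Bpifa2. Its exons overlap those of Rnpc3, which had 137 to 795 counts in the 6 libraries, and 33.3% of the 50-base windows of its transcripts occur in another gene. The pancreatic amylases Amy2b and Amy2a5 had 0 counts in 5 of the 6 libraries or all of them, with 4 counts of Amy2b in PD1+ Tconv replicate 2.

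Smr3a encodes a small secreted protein first known from the submandibular gland, where androgen raises it. It stood at 89.0 and 8.75 CPM in NK1.1+ ILTCk, at 3556 and 11.3 CPM in NK1.1- ILTCk and at 142 and 3978 CPM in PD1+ Tconv. Although it was listed as a submandibular gene, its level moved with Bpifa2 and not with Mucl2. Its counts per 100 of Bpifa2 were 9.99 and 6.15 in NK1.1+ ILTCk, with 10.2 and 5.48 in NK1.1- ILTCk and with 12.4 and 1.53 in PD1+ Tconv, so the library with the most Bpifa2 had the least Smr3a relative to it. A readthrough gene, Gm28434, shares 41.8% of its 50-base windows and had 0 counts in all 6 libraries.

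Dcpp1 is named for the serous demilune cells and the parotid gland. It stood at 16.0 and 1.22 CPM in NK1.1+ ILTCk, at 207 and 2.51 CPM in NK1.1- ILTCk and at 18.4 and 1531 CPM in PD1+ Tconv. Its near-identical neighbours Dcpp2 and Dcpp3 share 46.5% of its 50-base windows, so reads may have been split among them and the level of Dcpp1 is uncertain. Dcpp2 had at most 102 counts and Dcpp3 at most 191, both in PD1+ Tconv replicate 2, where Dcpp1 had 18922.

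The proportions inside the Bpifa2 set shifted between libraries. Chia1 had 8.30 and 6.53 counts per 100 of Bpifa2 in NK1.1+ ILTCk, with 11.1 and 4.75 in NK1.1- ILTCk and with 6.82 and 17.3 in PD1+ Tconv. Amy1 varied less, with 7.09 and 7.16, 10.9 and 8.89, and 12.0 and 6.39 counts per 100 of Bpifa2 in the same order. The 2 libraries richest in the set therefore differed in make-up. PD1+ Tconv replicate 2 had more Chia1 and less Smr3a and Amy1 per Bpifa2 than NK1.1- ILTCk replicate 1.

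Levels of different genes are compared per kilobase of annotated exon. In NK1.1- ILTCk replicate 1 Bpifa2 stood at 17286 CPM per kb, Smr3a at 5566, Chia1 at 2032, Amy1 at 1098 and Dcpp1 at 335. In PD1+ Tconv replicate 2 Bpifa2 stood at 129645 CPM per kb, Chia1 at 23733, Smr3a at 6225, Amy1 at 4827 and Dcpp1 at 2482. Bpifa2 led in both, and Chia1 and Smr3a changed places on this scale. In CPM without division by length, Chia1 stood above Smr3a in both libraries. The values were 3867 and 3556 CPM in the first and 45163 and 3978 CPM in the second, so their order depends on the lengths used.

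Mucl2 encodes a mucin-like salivary protein, listed in RefSeq also under the name Spt1. It stood at 683 and 48145 CPM in NK1.1+ ILTCk, at 34.2 and 88162 CPM in NK1.1- ILTCk and at 7.03 and 455 CPM in PD1+ Tconv. It had the most counts of any gene in NK1.1- ILTCk replicate 2 and NK1.1+ ILTCk replicate 2, with 8.73% and 4.26% of all counts. Of the 10 genes it had the widest span, 12534-fold, and the replicates of NK1.1- ILTCk differed 2579-fold.

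Scgb1b27 and Scgb2b27 encode the alpha and the beta-gamma type subunit of androgen-binding protein, secretoglobins that pair in saliva and tears. Scgb1b27 stood at 221 and 25792 CPM in NK1.1+ ILTCk, at 226 and 18668 CPM in NK1.1- ILTCk and at 16.8 and 3425 CPM in PD1+ Tconv. Scgb2b27 stood at 345 and 28612 CPM in NK1.1+ ILTCk, at 439 and 17417 CPM in NK1.1- ILTCk and at 42.3 and 4111 CPM in PD1+ Tconv. The 2 neighbouring genes followed each other across the libraries. Scgb1b27 had 64.2 and 90.1 counts per 100 of Scgb2b27 in NK1.1+ ILTCk, with 51.4 and 107 in NK1.1- ILTCk and with 39.8 and 83.3 in PD1+ Tconv. The 3 highest ratios came from the 3 libraries with the most of both genes.

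The secretoglobins were not tied to Mucl2 alone. Scgb2b27 had 50.5 and 59.4 counts per 100 of Mucl2 in NK1.1+ ILTCk, with 1284 and 19.8 in NK1.1- ILTCk and with 601 and 904 in PD1+ Tconv. The ratio was high in the 3 libraries where the Bpifa2 set made up 92.3% to 94.3% of the counts of the 10 genes, and low in the other 3. Scgb2b26, another beta-gamma type subunit gene, went with Mucl2 more closely. It stood at 44.1 and 9845 CPM in NK1.1+ ILTCk, at 6.70 and 5427 CPM in NK1.1- ILTCk and at 0.955 and 27.2 CPM in PD1+ Tconv.

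Prol1 encodes a proline-rich, mucin-type protein of salivary and lacrimal secretions. It stood at 17.8 and 174 CPM in NK1.1+ ILTCk, at 1.68 and 1781 CPM in NK1.1- ILTCk and at 1.65 and 22.7 CPM in PD1+ Tconv. NK1.1- ILTCk replicate 2 stood far above the other 5 libraries, NK1.1+ ILTCk replicate 2 included. Prol1 had 2.603 and 0.361 counts per 100 of Mucl2 in NK1.1+ ILTCk, with 4.92 and 2.02 in NK1.1- ILTCk and with 23.5 and 4.98 in PD1+ Tconv.

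Pip encodes prolactin-induced protein, a small glycoprotein of saliva, tears and other secretions. It stood at 117 and 10491 CPM in NK1.1+ ILTCk, at 2083 and 8206 CPM in NK1.1- ILTCk and at 59.0 and 16532 CPM in PD1+ Tconv. It was at 2083 CPM or more in the 4 libraries rich in either set. As a ratio of the highest to the lowest library, its share of the counts of the 10 genes varied least among the 10, from 3.58% to 9.25%. Its correlation with the other 9 genes over the 6 libraries ran from 0.02 with Smr3a to 0.88 with Scgb2b27.

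Split by set, the counts of the 10 genes showed which library carried which pattern. The Bpifa2 set made up 45.01% and 0.152% of these counts in NK1.1+ ILTCk, with 94.3% and 0.184% in NK1.1- ILTCk and with 92.3% and 93.0% in PD1+ Tconv. The Mucl2 set made up 50.3% and 90.6% in NK1.1+ ILTCk, with 1.43% and 93.7% in NK1.1- ILTCk and with 4.11% and 2.27% in PD1+ Tconv. Both PD1+ Tconv libraries and NK1.1- ILTCk replicate 1 thus carried mostly the Bpifa2 set, and both ILTCk replicate 2 libraries mostly the Mucl2 set. NK1.1+ ILTCk replicate 1 carried both in nearly equal amounts, 1132 CPM of the Bpifa2 set and 1267 CPM of the Mucl2 set, at a low level.

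**Figure D3:**
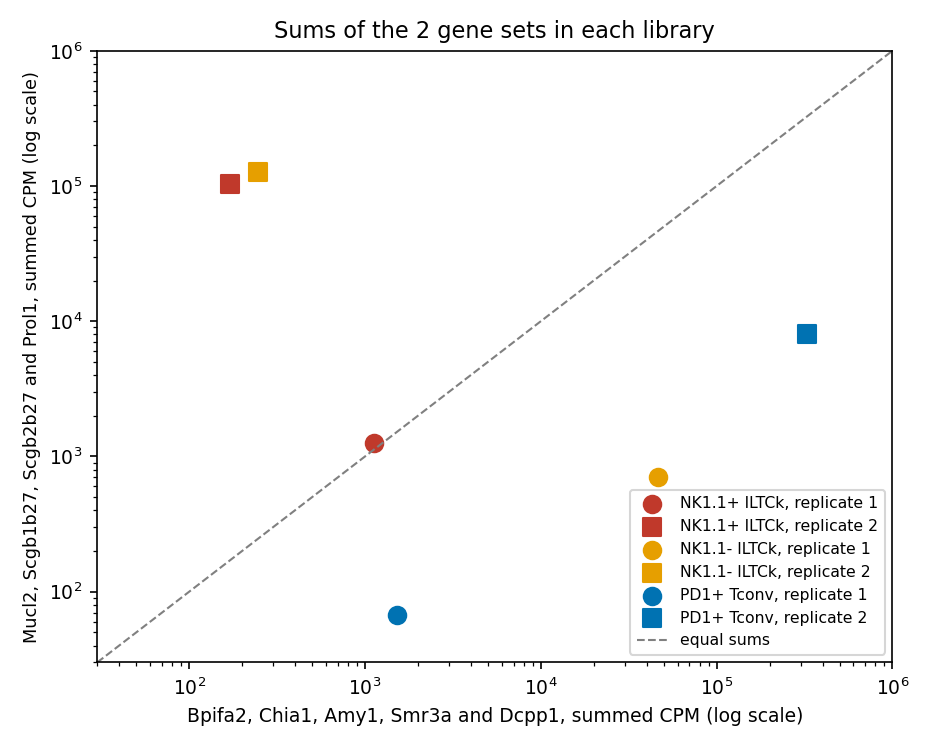
Each point is 1 library of the tumour table, with the summed CPM of Bpifa2, Chia1, Amy1, Smr3a and Dcpp1 on the x axis and of Mucl2, Scgb1b27, Scgb2b27 and Prol1 on the y axis, both on log scales; colours give the group, circles replicate 1 and squares replicate 2. NK1.1+ and NK1.1- ILTCk replicate 2 lie above the line of equal sums, NK1.1+ ILTCk replicate 1 lies close to it, and the other 3 libraries lie below it.

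Both sets were traced in genes of the gland lists that are not among the 10. Of the 8 other parotid genes, 6 reached 10 CPM in a library of the tumour table, and Prp2 was at 0 in all 6 libraries. Dnase1, a secreted DNA-cutting enzyme, stood at 22.9 and 6.09 CPM in NK1.1+ ILTCk, at 941 and 5.65 CPM in NK1.1- ILTCk and at 21.1 and 7479 CPM in PD1+ Tconv. Its counts per 100 of Bpifa2 stayed between 1.84 and 4.28. The proline-rich protein gene Prpmp5 was likewise highest in PD1+ Tconv replicate 2, at 222 CPM, and next in NK1.1- ILTCk replicate 1, at 27.4 CPM, with at most 2.23 CPM elsewhere. Prb1, another proline-rich protein gene, had 26.3 CPM in the first of these libraries and 1.62 CPM in the second.

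Car6, the carbonic anhydrase of saliva, did not follow Bpifa2. It stood at 68.4 and 6875 CPM in NK1.1+ ILTCk, at 805 and 3951 CPM in NK1.1- ILTCk and at 30.4 and 1999 CPM in PD1+ Tconv, the same order of libraries as for both secretoglobins. Lpo, the peroxidase of saliva and milk, was highest in PD1+ Tconv replicate 2 at 256 CPM and next in NK1.1+ ILTCk replicate 2 at 121 CPM. The tight junction gene Cldn10 was highest in NK1.1- ILTCk replicate 2, at 166 CPM. It was also at 21.8 and 51.9 CPM in ILTCkP and at 4.55 and 4.40 CPM in CD8SP.

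Of the 6 other submandibular acinar genes in the table, Scgb2b26, Mup5 and Smgc reached 10 CPM. Mup5, of the major urinary protein family of small carriers, stood at 15.4 and 2713 CPM in NK1.1+ ILTCk, at 30.5 and 2205 CPM in NK1.1- ILTCk and at 2.96 and 358 CPM in PD1+ Tconv. Smgc, which encodes submandibular gland protein C, had 1516 counts in NK1.1- ILTCk replicate 2, 1 count in NK1.1+ ILTCk replicate 2 and 0 in the other 4 libraries. The 2 libraries that carried the Mucl2 set were therefore alike in Mup5, Scgb1b27, Scgb2b27 and Scgb2b26 but not in Smgc or Prol1. Scgb2b24 stood at 1.94 CPM in NK1.1+ ILTCk replicate 2 and at 0.273 CPM in NK1.1- ILTCk replicate 2. It was highest in NK1.1- ILTCk replicate 1 at 2.45 CPM, as was Smr2 at 2.33 CPM.

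The summed level of submandibular granular duct genes divided the 2 libraries that carried the Mucl2 set, mostly through Klk1. Klk1, tissue kallikrein, stood at 4.73 and 5.10 CPM in NK1.1+ ILTCk, at 1.92 and 731 CPM in NK1.1- ILTCk and at 5.79 and 464 CPM in PD1+ Tconv. Klk1b26 was at 16.4, 52.4 and 37.7 CPM in NK1.1+ ILTCk replicate 2, NK1.1- ILTCk replicate 2 and PD1+ Tconv replicate 2, and at 0.134 to 0.560 CPM in the replicate 1 libraries. The 17 genes of the list summed to 12.5 and 35.6 CPM in NK1.1+ ILTCk, 23.8 and 832 CPM in NK1.1- ILTCk, and 16.1 and 627 CPM in PD1+ Tconv. Klk1b11 was highest in PD1+ Tconv replicate 2, at 88.3 CPM. It was at 5.28 CPM in NK1.1+ ILTCk replicate 2 and at 19.0 CPM in NK1.1- ILTCk replicate 2. Egf, a growth factor gene of these ducts, was at most at 9.73 CPM. It did not divide the 2 ILTCk replicate 2 libraries, at 7.03 and 7.06 CPM. The kallikrein genes are near-identical copies, so their counts may have been split among them.

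**Figure D4:**
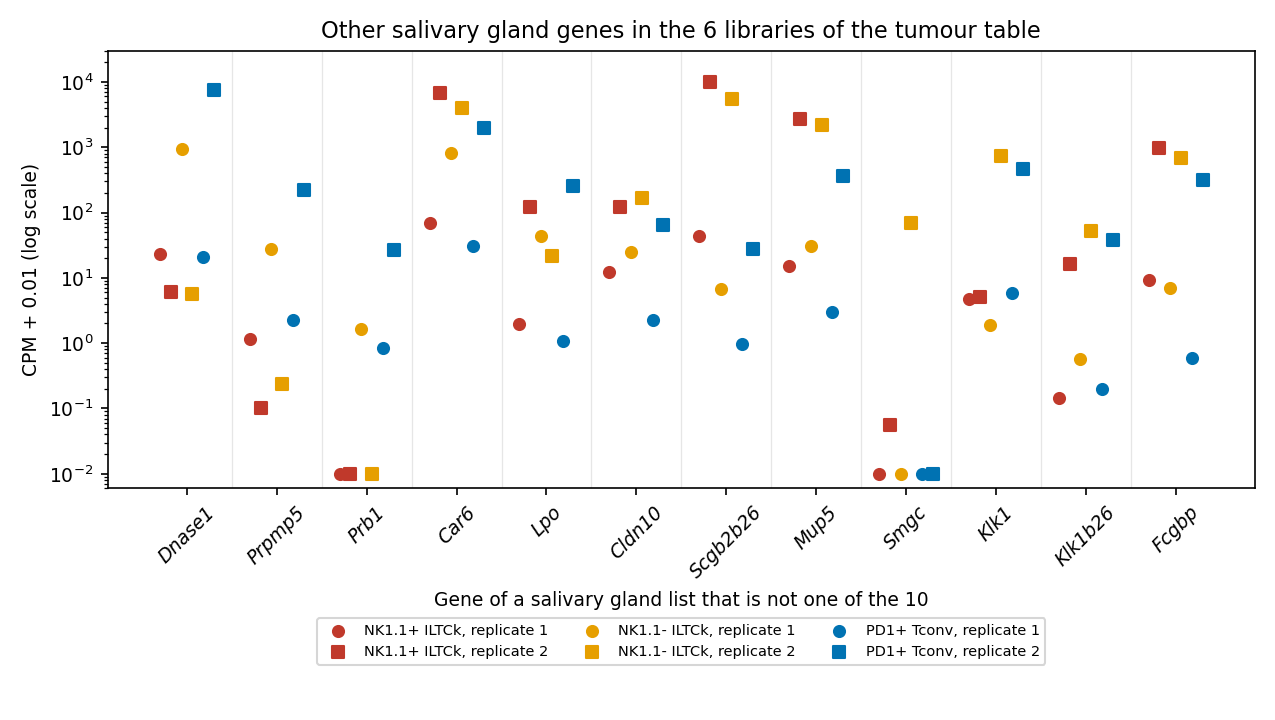
Points give the level of 12 salivary gland list genes that are not among the 10, in CPM + 0.01 on a log scale, in the 6 libraries of the tumour table; colours give the group, circles replicate 1 and squares replicate 2, and the lowest row of points is a level of 0. Dnase1, Prpmp5 and Prb1 peak in PD1+ Tconv replicate 2, Scgb2b26 and Mup5 in NK1.1+ ILTCk replicate 2, and Smgc and Klk1 in NK1.1- ILTCk replicate 2.

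Of the sublingual list, Fcgbp, which encodes a mucus protein that binds antibodies, did not follow Dcpp1. It stood at 9.15 and 971 CPM in NK1.1+ ILTCk, at 6.93 and 690 CPM in NK1.1- ILTCk and at 0.573 and 320 CPM in PD1+ Tconv. Muc19, the main mucin of the mouse sublingual gland and transcribed from the same locus as Smgc, had 1 count in NK1.1- ILTCk replicate 2 and 0 elsewhere in the tumour table, and Bpifb2 had 1 count in NK1.1- ILTCk replicate 1 and 0 in the other 5 libraries. Galnt12, an enzyme gene of mucin glycosylation, was at 12.4 to 29.8 CPM.

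The lacrimal list was near 0 once Pip was set aside. Its 15 other genes in the table summed to 0.127 to 4.37 CPM in the 6 libraries, and 7 of the list's 16 genes were at 0 in all of them, among them Esp1, an exocrine gland peptide released in tears, and the secretoglobin genes Scgb2b20 and Scgb1b20. Esp18 reached 3.24 CPM in NK1.1- ILTCk replicate 2. Pip is shared between the lacrimal and the parotid list, and its level alone does not tell them apart.

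Other secretory organs were checked in the same way. Of 29 exocrine pancreas genes, Cela1, Cel and Rnase1 reached 10 CPM in a library, 8 were at 0 in all 6, and the sum was 17.3 to 33.4 CPM. The 10 airway genes summed to 0.955 to 6.11 CPM and the 12 genes of male accessory glands to at most 0.767 CPM. Milk genes were present in every library, with a summed level of 4440 and 4534 CPM in NK1.1+ ILTCk, 7952 and 2516 CPM in NK1.1- ILTCk, and 1755 and 509 CPM in PD1+ Tconv, led by the casein gene Csn3. The library richest in the 10 gland genes had the least of them. Csn2, another casein gene, had 198 CPM in NK1.1- ILTCk replicate 1 and 1.31 to 34.4 CPM in the other 5 libraries.

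Markers of other cells moved in part with the gland genes, and their part in the results was not tested. The 12 epithelial genes were each at 1 CPM or more in all 6 libraries of the tumour table and 1 to 3 of them were in each thymic library. They summed to 2396 and 3392 CPM in NK1.1+ ILTCk, 3531 and 4813 CPM in NK1.1- ILTCk, and 902 and 2445 CPM in PD1+ Tconv, a 5.34-fold span beside the 214-fold span of the 10 gland genes. Genes of secretory cells and their salt transport, such as Aqp5, Ano1 and Bhlha15, summed to 1516 and 2657 CPM, 2572 and 2159 CPM, and 629 and 1439 CPM in the same order. Skeletal muscle genes summed to 22.7 and 24.0 CPM in NK1.1+ ILTCk, 27.0 and 105 CPM in NK1.1- ILTCk, and 12.3 and 341 CPM in PD1+ Tconv, highest where Bpifa2 was highest, with Acta1 at 167 CPM.

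The 14 myeloid genes summed to 7267 and 21741 CPM in NK1.1+ ILTCk, 3979 and 3593 CPM in NK1.1- ILTCk, and 148 and 1106 CPM in PD1+ Tconv. The 13 stromal and endothelial genes summed to 265 and 76.9 CPM, 680 and 611 CPM, and 105 and 602 CPM in the same order. B cell and plasma cell genes summed to 774 and 533 CPM, 613 and 201 CPM, and 474 and 168 CPM, lower in replicate 2 of each group, where the 10 gland genes took more of the library. Adipose genes summed to 12.1 and 20.6 CPM, 9.47 and 27.0 CPM, and 7.48 and 74.8 CPM, with Fabp4 leading in PD1+ Tconv replicate 2 at 65.6 CPM. The skin list summed to 75.6 to 591 CPM, and Mgst1 alone of its 10 genes reached 10 CPM.

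Over the 6 libraries, the genes most like the mean profile of the 10 by Pearson's r of log2(CPM + 1), among 9057 genes with at least 20 CPM in a library, were Vegfa (r = 0.973), Rflnb (0.966), Kdelr3 (0.958), Chchd10 (0.955) and Igfbp3 (0.955). Vegfa, a vessel growth factor gene, ran from 18.7 to 49.9 CPM, a 2.67-fold span, so likeness of pattern came with a far smaller change. Without PD1+ Tconv replicate 2, 0 of the 20 nearest genes stayed among the nearest 20, so that ranking rested on 1 library.

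The nearest genes of single members had wide spans for some members and narrow ones for others. They are the closest of 9057 genes over 6 libraries, and these rankings were not repeated with a library left out. Crisp1, a cysteine-rich secretory protein gene, was nearest to Bpifa2 (r = 0.996), Amy1 (0.996), Dcpp1 (0.992) and Smr3a (0.964). It stood at 10.7 and 1.49 CPM in NK1.1+ ILTCk, at 327 and 5.15 CPM in NK1.1- ILTCk and at 20.2 and 1885 CPM in PD1+ Tconv. Dnase1 was nearest to Chia1 (0.997), followed by the cystatin gene Cst10 (0.997), which reached 13471 CPM in PD1+ Tconv replicate 2. Hhipl2 was nearest to both Scgb1b27 (0.998) and Scgb2b27 (0.996), with 54.9 CPM at its highest. Prorsd1, nearest to Mucl2 (0.987), had a 1.85-fold span, while Scgb2b26, second nearest to Mucl2 (0.984), had a 10311-fold span. Pla2g12a was nearest to Pip (0.996) with a 4.66-fold span, and Rabggtb to Prol1 (0.992) with a 1.78-fold span.

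The comparison of groups met the spread between replicates described above. The fold between replicates of the 10 genes ran from 6.19 to 116 in NK1.1+ ILTCk, from 3.94 to 2579 in NK1.1- ILTCk and from 13.7 to 578 in PD1+ Tconv. Over 17075 genes with at least 60 counts in the table, the median fold between replicates of CPM + 1 was 1.39, 1.28 and 1.58 in the same order, and the 95th percentile was 3.77, 2.71 and 4.18. On the same CPM + 1 scale the smallest fold among the 10 was 5.73, 3.94 and 8.91, above that percentile in each group. The 10 genes were picked for abundance in these same libraries, which can favour genes very high in a single library. Their place against all genes is therefore a description and carries no test.

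The Bpifa2 set summed to 652 ± 679 CPM in NK1.1+ ILTCk and to 164642 ± 230687 CPM in PD1+ Tconv, and the Mucl2 set to 51995 ± 71740 CPM in NK1.1+ ILTCk and to 4041 ± 5618 CPM in PD1+ Tconv (SD, n = 2 each). edgeR's quasi-likelihood test with Benjamini-Hochberg adjustment over 18091 genes called 0 genes (0%) at an adjusted p under 0.05, and 0 of the 10; at an unadjusted p under 0.05 it counted 2590 genes and 4 of the 10. Log2 fold changes were -7.99 ± 3.13 for Bpifa2, -9.09 ± 3.59 for Chia1, -7.84 ± 3.01 for Amy1, -6.49 ± 2.68 for Dcpp1 and -5.40 ± 2.58 for Smr3a (± SE). Mucl2 stood at 6.72 ± 3.50, Prol1 at 2.99 ± 2.37, Scgb1b27 at 2.92 ± 2.70, Scgb2b27 at 2.80 ± 2.46 and Pip at -0.65 ± 2.20. Adjusted p-values of the 10 ran from 0.314 to 0.931 in edgeR. With the replicate number as a block, edgeR called 755 genes (4.17%), among them Scgb1b27 (log2 fold change 3.27, adjusted p = 0.0180) and Scgb2b27 (2.90, adjusted p = 0.0264), both higher in NK1.1+ ILTCk than in PD1+ Tconv within each replicate number.

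The sizes of these fold changes rested on single libraries. Without PD1+ Tconv replicate 2, the log2 fold change was -1.18 for Bpifa2, -0.94 for Chia1, -1.93 for Amy1, -1.12 for Dcpp1 and -1.57 for Smr3a, with edgeR adjusted p-values from 0.666 to 0.859. Mucl2 stood at 1.58 and Prol1 at 0.58 without NK1.1+ ILTCk replicate 2, where both secretoglobins stood below 0.

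In that comparison the libraries of NK1.1+ ILTCk and PD1+ Tconv did not overlap for 6 of the 10 genes, the 5 of the Bpifa2 set and Mucl2, against 41.5% of all genes tested. The median log2 fold change was -3.02 over the 10 genes and -0.04 over all genes. DESeq2 called 1268 genes (7.44% of 17038), 605 of them lower (3.55%), among them Bpifa2 (adjusted p = 0.000780), Chia1 (0.0243) and Amy1 (0.0347) of the 10. Without PD1+ Tconv replicate 2, DESeq2 called 1947 genes (12.4%) and none of these 3, with adjusted p-values of 0.718 for Bpifa2, 0.888 for Chia1 and 0.732 for Amy1. It then called Mucl2 (log2 fold change 11.73, adjusted p = 0.0196), Scgb1b27 (9.57, adjusted p = 0.0297), Scgb2b27 (8.39, adjusted p = 0.00841) and Pip (6.46, adjusted p = 0.000742), with PD1+ Tconv replicate 1 as the lone library of its group, assumed to vary like the others. The genes were chosen for abundance in these libraries, so nothing further is read from these counts.

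NK1.1- ILTCk against PD1+ Tconv gave 0 calls of 18091 genes in edgeR (0%), with 2147 genes and 0 of the 10 at an unadjusted p under 0.05, and 707 calls in DESeq2 (4.73%), 0 of them among the 10. The log2 fold change was 7.58 ± 3.63 for Mucl2, 6.21 ± 2.75 for Prol1 and -2.91 ± 2.48 for Bpifa2. Groups overlapped for all 10 genes, while they did not overlap for 45.8% of all genes. Adjusted p-values of the 10 ran from 0.429 to 0.982 in edgeR, and their median log2 fold change was -0.45, beside -0.04 over all genes. With the replicate number as a block edgeR called 298 genes (1.65%), among them Scgb1b27 of the 10 (log2 fold change 3.08, adjusted p = 0.0427). Without PD1+ Tconv replicate 2, Bpifa2 stood at 3.93, Chia1 at 4.64 and Pip at 6.43 on the log2 scale, above 0 where all 6 libraries gave values below it.

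NK1.1+ ILTCk against NK1.1- ILTCk gave 0 calls in edgeR (0%), with 712 genes and 0 of the 10 at an unadjusted p under 0.05, and 57 calls in DESeq2 (0.373%), 0 of them among the 10. Groups overlapped for all 10 genes, beside 37.5% of all genes without overlap. The median log2 fold change of the 10 was -3.41, beside 0.01 over all genes, and edgeR gave each of the 10 an adjusted p of 1.00. The log2 fold change of Bpifa2 was -5.08 ± 2.74, and without NK1.1- ILTCk replicate 1, the 1 library of these 2 groups with much Bpifa2, it was 1.33. The 2 contrasts with PD1+ Tconv share those libraries, and all 3 share libraries with each other.

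**Figure D5:**
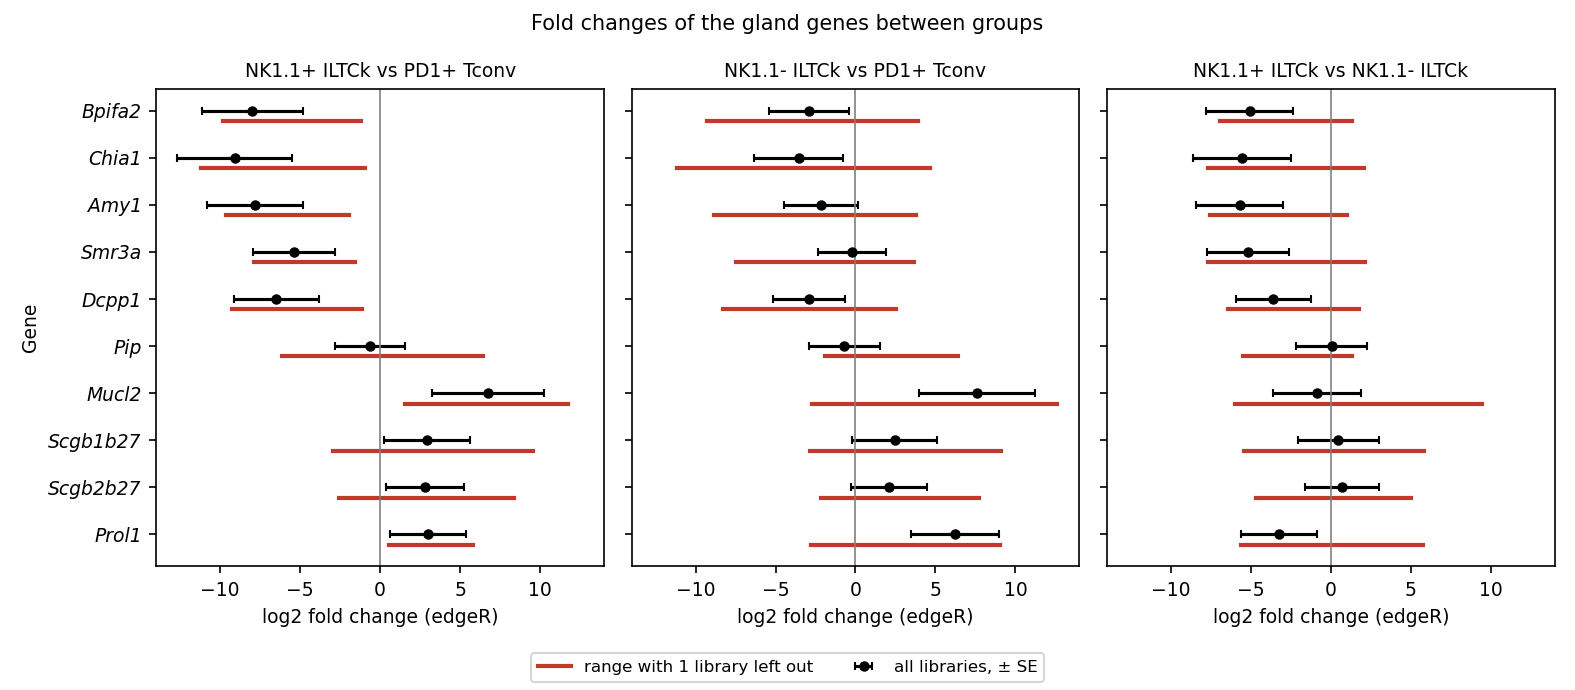
Black points give the log2 fold change of each gene from edgeR with all libraries, with bars of 1 standard error, in the 3 comparisons of the tumour table (first group over second); red lines give the range of that value when 1 library at a time is left out. For NK1.1+ ILTCk vs PD1+ Tconv the 5 genes of the Bpifa2 set and Mucl2 keep their sign over the red lines, and Prol1 does too, but the lines of the Bpifa2 set reach up to between -1.93 and -0.94; in the other 2 comparisons the red lines of most genes cross 0.

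For ILTCkP against CD8SP, low counts kept all 10 genes out of the 14634 genes tested, of which edgeR called 689 (4.71%). Without the filter on low counts, edgeR tested the 4 genes that had counts and called 0 of them. The thymic sums averaged 0.370 ± 0.480 CPM in ILTCkP and 0.136 ± 0.148 CPM in CD8SP (SD, n = 2 each), a difference smaller than the SD of ILTCkP.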

How the data were processed

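The values used were the deposited read counts per gene of bulk RNA sequencing, whole numbers that the authors left unnormalised, in 1 table of 6 libraries and 1 table of 4. The build mm10 and the program DESeq are named in the submitters' processing notes; for the aligner, the counter and the strand setting nothing is stated in the sources used here. The genes whose exons overlap those of Amy1, Smr3a and Dcpp1 lie on the same strand as they do. Reads from the overlapping stretches therefore cannot be told apart by strand. Per the labels, the ILTCk groups are named NK1.1+ and NK1.1- ILTCk in the titles, which were followed, and ILTCkP in the cell type field.

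Each table was fitted separately in R 4.3.3 with edgeR 4.0.16 (filterByExpr, TMM, robust quasi-likelihood fit, Benjamini-Hochberg adjustment over all tested genes, called at an adjusted p under 0.05); all 6 libraries of the tumour table entered 1 fit. The alternatives were DESeq2 1.42.0, RLE (DESeq2-type size factors) and upper-quartile scaling, 2 other filters on low counts, the replicate number as a block, each library left out and, added after seeing the data, DESeq2 without PD1+ Tconv replicate 2. The replicate numbers are not stated to pair libraries; the differences between replicates 1 and 2 correlated at 0.361, 0.325 and 0.337 between the tumour groups, so values with the block stand beside those results. Scripts were tested on simulated data. Shared sequence was counted in 50-base windows of GENCODE M21 transcripts, where all 10 symbols matched; promoters are from RefSeq. The 3-count floor and Wilson intervals cover counting error only, and reads are not independent molecules.

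The 10 genes, the marker lists and the tests were chosen with earlier results of these data known. The rule for naming genes took all 10, the 20 nearest to their mean profile and the 3 nearest to each (predicted and Rik genes left out). It also took up to 4 other genes with the highest CPM from each gland list, defining genes at 0, and up to 2 from each other list. Not every gene inside this rule is named. Egf, Prb1, Cldn10, Smr2, Muc19, Bpifb2, Gkn1 and the genes that overlap or resemble a member were named beyond it. So were genes given only as examples of a list. These were named after their values were seen. Spt1, Esp22 and Lacrt of the lists were not found under those names.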

Additional observations from a re-analysis of the deposited data

How the results depend on the processing

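With all 6 libraries, RLE and upper-quartile scaling and the stricter count filter left 0 calls in each tumour comparison, and the sign of the 10 genes held under these settings, DESeq2 and no filter, except Pip in NK1.1+ ILTCk vs NK1.1- ILTCk under upper-quartile scaling (-0.065). DESeq2 called 1268 genes for NK1.1+ ILTCk vs PD1+ Tconv, 707 for NK1.1- ILTCk vs PD1+ Tconv, 57 for NK1.1+ ILTCk vs NK1.1- ILTCk and 1997 in the thymus, where edgeR called 0, 0, 0 and 689; without a filter edgeR called 1249, 799, 167 and 2535, with none of the 10 genes among them. The summed levels moved by less than the spread between replicates under RLE scaling and unscaled totals. The cause of these changes was not tested.

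With the replicate number as a block edgeR called 755, 298, 0 and 2212 genes in the order above; in the thymus the differences between replicates 1 and 2 correlated at 0.0918. Beside the secretoglobins named in the report, the block changed no call among the 10 genes; Pip changed sign for NK1.1- ILTCk vs PD1+ Tconv (2.69), and for NK1.1+ ILTCk vs NK1.1- ILTCk so did Mucl2 (0.82) and Pip (-2.90).

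Leaving out 1 library at a time, where the lone library is assumed to vary like the other groups, gave 0 to 35 calls for NK1.1+ ILTCk vs PD1+ Tconv (35 without NK1.1+ ILTCk replicate 1), 0 in the other 2 tumour comparisons and 592 to 7017 in the thymus (7017 without ILTCkP replicate 2, 2812 without ILTCkP replicate 1). DESeq2 without PD1+ Tconv replicate 2, an alternative chosen after seeing the data, called 1947 genes for NK1.1+ ILTCk vs PD1+ Tconv, with Pip above 0 (6.46). For NK1.1+ ILTCk vs PD1+ Tconv the edgeR log2 fold change spanned -2.94 to 9.56 for Scgb1b27, -2.57 to 8.38 for Scgb2b27 (both below 0 without NK1.1+ ILTCk replicate 2) and -6.14 to 6.45 for Pip (highest without PD1+ Tconv replicate 2). For NK1.1- ILTCk vs PD1+ Tconv it spanned -9.30 to 3.93 for Bpifa2, -11.16 to 4.64 for Chia1, -8.83 to 3.79 for Amy1, -7.50 to 3.65 for Smr3a, -8.25 to 2.51 for Dcpp1 and -1.93 to 6.43 for Pip, each highest without PD1+ Tconv replicate 2. It spanned -2.69 to 12.59 for Mucl2, -2.86 to 9.11 for Scgb1b27, -2.18 to 7.70 for Scgb2b27 and -2.78 to 9.04 for Prol1, each lowest without NK1.1- ILTCk replicate 2. For NK1.1+ ILTCk vs NK1.1- ILTCk it spanned -6.94 to 1.33 for Bpifa2, -7.71 to 2.09 for Chia1, -7.55 to 1.01 for Amy1, -7.68 to 2.12 for Smr3a and -6.43 to 1.78 for Dcpp1, each highest without NK1.1- ILTCk replicate 1, and -6.01 to 9.44 for Mucl2, -5.41 to 5.81 for Scgb1b27, -4.69 to 5.003 for Scgb2b27, -5.65 to 5.79 for Prol1 and -5.46 to 1.31 for Pip. In the thymus the filter removed all 10 genes; without it edgeR tested 4 of them and called 0, with a lowest adjusted p of 0.144. The part of depth in these calls was not tested.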
